A study of Mus musculus with 6 samples.

Results

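Cyp4a genes encode cytochrome P450 enzymes of the endoplasmic reticulum that hydroxylate the terminal (omega) carbon of fatty acids. The rule took 6 of them by name from the deposited expression table, Cyp4a10, Cyp4a14, Cyp4a31, Cyp4a32, Cyp4a12a and Cyp4a12b, and all 6 were found among its 18849 genes. The group was chosen by its FPKM values in these libraries, that is with the contrast of knockout and control kidneys known, so differences between those groups are given for the 6 genes as a description and without a test. The 6 libraries are of kidney tissue from male C57BL/6 mice, 8 weeks old, under unilateral ureteral obstruction (UUO) kept up for 14 days, a procedure in which a blocked ureter injures the tubules of the kidney behind it. The 3 control libraries, called floxed here, carry loxP sites at Abl1 (c-Abl) on both alleles, while their genotype label reads WT. The 3 knockout libraries carry the same floxed alleles and Ksp-Cre, a recombinase driven by the promoter of kidney-specific cadherin in tubule epithelium, and their genotype label reads knockdown. Unobstructed kidneys were not analysed here, and cells of the knockout kidney that do not express the Cre keep Abl1. The labels do not state whether libraries come from separate mice, and the p-values then rest on spread that may be technical. Values per library are listed in the order of replicates 1, 2 and 3.

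In mouse kidney the Cyp4a enzymes sit mainly in the proximal tubule. They turn fatty acids into omega-hydroxy acids, which alcohol and aldehyde dehydrogenases oxidise to dicarboxylic acids that peroxisomes then shorten, and they turn arachidonic acid into 20-HETE, a lipid that constricts vessels and acts on tubular salt transport. Cyp4a10 and Cyp4a14 are textbook targets of the fatty acid receptor PPAR-alpha, whereas Cyp4a12a, the main 20-HETE synthase of the mouse, is induced by androgen.

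The coding sequences show how well reads of the 6 genes can be told apart, which bears on every value below. In GENCODE M21 transcripts (GRCm38, another build than the mm9 named in the submitters' processing notes) all 6 lie on chromosome 4, with coding regions of 1521 to 1527 bases. Each coding region holds the codons of the P450 signature around the cysteine that binds haem. The 60 coding bases that hold it are given for each gene, 5′ to 3′, with the signature's codons at bases 16 to 45 and with capitals at the bases that differ from Cyp4a10.
Cyp4a10: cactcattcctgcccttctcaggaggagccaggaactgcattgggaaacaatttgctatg
Cyp4a31: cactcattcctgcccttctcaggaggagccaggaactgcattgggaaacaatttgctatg
Cyp4a32: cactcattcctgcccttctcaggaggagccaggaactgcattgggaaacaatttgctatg
Cyp4a14: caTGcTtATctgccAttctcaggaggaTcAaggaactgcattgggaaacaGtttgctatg
Cyp4a12a: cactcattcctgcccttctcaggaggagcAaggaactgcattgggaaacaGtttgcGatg
Cyp4a12b: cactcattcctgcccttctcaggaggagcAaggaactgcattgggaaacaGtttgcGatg
Cyp4a10, Cyp4a31 and Cyp4a32 are identical here, Cyp4a12a and Cyp4a12b are identical to each other and differ from Cyp4a10 at 3 bases, and Cyp4a14 differs from it at 9.

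Over whole coding regions the same groups appear. Cyp4a10 shares 96.6% of aligned bases with Cyp4a31 and 97.2% with Cyp4a32, and Cyp4a12a shares 98.5% with Cyp4a12b, with 23 substitutions. Cyp4a14 shares at most 75.9% with any of the other 5. The 60-base window in which Cyp4a10 and Cyp4a31 differ most, coding bases 106 to 165, has 6 differences, shown in capitals.
Cyp4a10: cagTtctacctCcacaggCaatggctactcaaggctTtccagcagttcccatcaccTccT
Cyp4a31: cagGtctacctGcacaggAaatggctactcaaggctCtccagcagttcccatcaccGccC
Cyp4a12a and Cyp4a12b differ at no more than 4 bases in any such window, and the first of them, coding bases 624 to 683, reads as follows.
Cyp4a12a: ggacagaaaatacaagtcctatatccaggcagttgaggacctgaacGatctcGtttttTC
Cyp4a12b: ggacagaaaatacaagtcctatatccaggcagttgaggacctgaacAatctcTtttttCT
Of all 50-base windows along a transcript, 48.9% of those of Cyp4a12a and 49.4% of those of Cyp4a12b occur unchanged in the other gene. For Cyp4a10, Cyp4a31 and Cyp4a32, 30.5%, 20.1% and 46.8% occur in another of the 6 genes, and for Cyp4a14 0 of 2447 do. With 100-base windows the shares are 35.8%, 36.2%, 12.7%, 8.22%, 20.1% and 0% for Cyp4a12a, Cyp4a12b, Cyp4a10, Cyp4a31, Cyp4a32 and Cyp4a14. How long the reads were, and how reads matching several genes were counted, is not given here. Of the Cyp4a14 windows 0.245% occur in genes outside the 6. The value of Cyp4a14 therefore stands almost wholly on sequence of its own, whereas values within the Cyp4a10, Cyp4a31 and Cyp4a32 group, and within the Cyp4a12 pair, may be split between neighbours in ways that the table does not show.

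Expression is in FPKM (fragments per kilobase of transcript, scaled to library size), a scale per length on which levels of different genes can be set side by side. The spacing of low values implied about 16000000 to 17950000 fragments per library, a rough estimate, since only 61.5% to 65.8% of the low values used lay within 0.2 of a whole fragment. Abl1 itself read 18.16, 15.93 and 17.33 FPKM in the floxed and 10.46, 14.45 and 12.91 FPKM in the knockout libraries, without overlap (exact two-sided permutation p = 0.1, the smallest that 3 against 3 libraries allow). Across the 13390 genes with at least 1 FPKM in at least 3 libraries, limma on log2(FPKM + 1) called 9 at an adjusted p under 0.05, 0.0672% of those tested, of which 4 were higher (0.0299%) and 5 lower (0.0373%). At an unadjusted p under 0.05 stood 24.7% of the genes tested, 8.38% higher and 16.3% lower. The limma adjusted p of Abl1 was 0.144. Like Abl1, 21.7% of the genes tested were lower in knockout libraries without overlap. Log2 fold changes below are on that scale, where low genes show less change than they had. The median gene stood 0.12 lower in knockout kidneys, while dividing each library by its median ratio brought it to -0.00048 and took the share of higher genes among those at an unadjusted limma p under 0.05 from 34.0% to 51.0%. Knockout replicate 3 stood apart from the other two knockout libraries. On the first principal component (61.8% of the variance) it lay at -7.48, between the floxed libraries (-29.0 to -26.2) and knockout replicates 1 and 2 (54.1 and 37.4). Without it limma called 3271 genes, 24.4% of those tested.

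Cyp4a14, the gene with the clearest sequence of its own, was the one with the greatest fold between the groups among the 6. It was at 7.28, 3.34 and 4.23 FPKM across floxed libraries, against 43.98, 97.18 and 51.54 across knockouts. Every knockout library was at least 6 times as high as the highest floxed one, and knockout replicate 2 was the highest. The means were 4.95 ± 2.07 (SD, n = 3) and 64.2 ± 28.8 FPKM (SD, n = 3), a 13.0-fold ratio, with a log2 fold change of 3.42. Against the estimated depth these values stand for about 149 to 294 fragments per floxed library and 1855 to 3929 per knockout library.

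Cyp4a10, which hydroxylates lauric and other medium-chain fatty acids, showed the tightest floxed values of the 6 relative to their level. It was at 15.71, 17.06 and 18.9 FPKM across floxed libraries, against 140.32, 105.18 and 73.85 across knockouts. The lowest knockout library, replicate 3, was still well above all floxed libraries. The means were 17.2 ± 1.60 and 106 ± 33.3 FPKM, a 6.18-fold ratio (log2 fold change 2.52).

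Cyp4a31, the near copy of Cyp4a10, was the most abundant of the 6 in floxed kidneys. It was at 34.59, 31.26 and 40.06 FPKM across floxed libraries, against 126.56, 135.86 and 77.13 across knockouts. The groups did not overlap, and replicate 3 was again the lowest knockout library. The means were 35.3 ± 4.44 and 113 ± 31.6 FPKM, a 3.21-fold ratio (log2 fold change 1.62). The ratio of Cyp4a10 to Cyp4a31 differed between the groups, although Cyp4a31 was the higher of the pair in every library but knockout replicate 1. Cyp4a10 stood at 0.454 to 0.546 of the Cyp4a31 level in floxed libraries and at 0.774 to 1.11 of it in knockout libraries, without overlap, and reads shared by the pair could move either value.

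Cyp4a32, the least expressed of the 6, read 0.9, 0.55 and 0.62 FPKM across floxed libraries, against 1.86, 2.22 and 0.61 across knockouts. Knockout replicates 1 and 2 were above all floxed libraries, and replicate 3 lay within their range. The floxed libraries and knockout replicate 3 held only about 15 to 22 estimated fragments each, and the gene did not reach the level required for the test. Nearly 47% of its 50-base windows are shared with its neighbours, and how many of its fragments came from Cyp4a10 or Cyp4a31 was not tested. Summing the 3 near copies does not fully remove the question of how reads were split among them. Transcripts of Cyp4a10, Cyp4a31 and Cyp4a32 have 2109, 2509 and 1530 bases, and FPKM divides by length. A read moved between them therefore changes the sum, and shared reads may have been left out or counted more than once. The sum of Cyp4a10, Cyp4a31 and Cyp4a32 was 51.2, 48.87 and 59.58 FPKM across floxed libraries, against 268.74, 243.26 and 151.59 across knockouts, a 4.16-fold ratio of means.

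**Figure D1:**
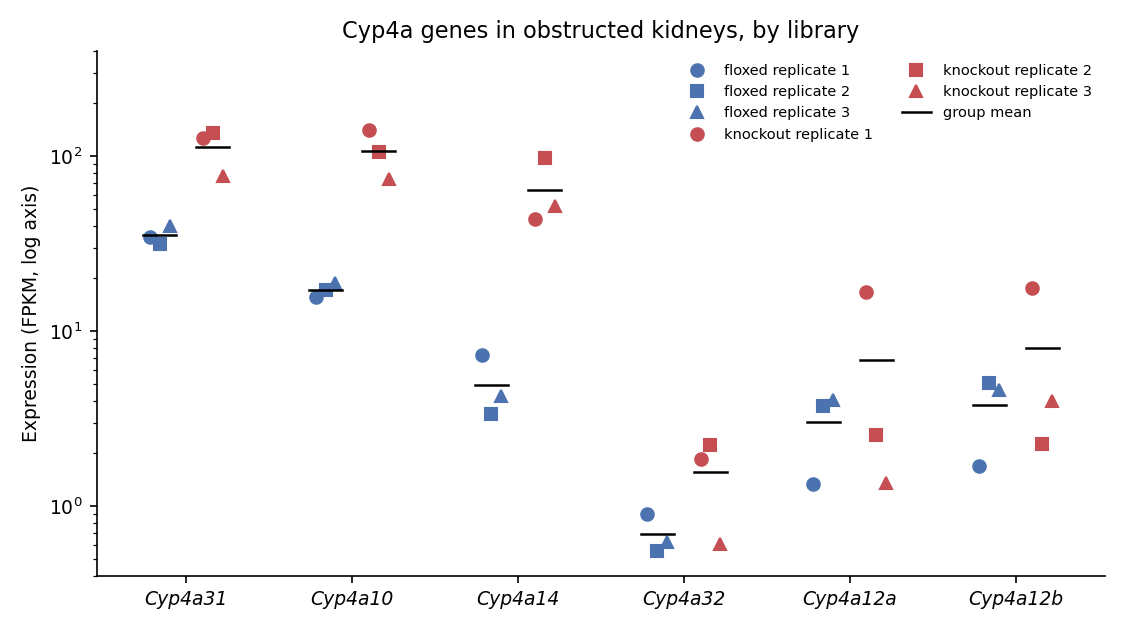
FPKM of the 6 Cyp4a genes on a log axis, with 1 point per library (blue floxed, red knockout, shape by replicate number) and a bar at each group mean. Cyp4a31, Cyp4a10 and Cyp4a14 do not overlap between groups, whereas for Cyp4a12a and Cyp4a12b only knockout replicate 1 stands above the floxed libraries.

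The Cyp4a12 pair did not follow these genes. Cyp4a12a was at 1.33, 3.72 and 4.04 FPKM across floxed libraries, against 16.66, 2.54 and 1.35 across knockouts. Cyp4a12b was at 1.7, 5.03 and 4.58 FPKM across floxed libraries, against 17.69, 2.27 and 3.96 across knockouts. In each gene a single library, knockout replicate 1, was high, and the other two knockout libraries lay within the floxed range. The log2 fold changes of 0.47 for Cyp4a12a and 0.58 for Cyp4a12b turned to -0.40 and -0.16 without knockout replicate 1, so no direction can be given for them. The pair also varied within the floxed group, where replicate 1 was the lowest in both genes and the summed pair ran from 3.03 to 8.75 FPKM. The sum of Cyp4a10, Cyp4a31 and Cyp4a32 ran only from 48.87 to 59.58 FPKM there.

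In all, 3 of the 5 tested Cyp4a genes did not overlap between the groups and stood higher in knockout libraries. Of all genes tested, 31.7% did not overlap in either direction and 10.0% did so with knockout higher. All 5 had a log2 fold change above 0, beside 34.6% of all genes. Since that contrast was known when the 6 were chosen, nothing is read from these counts. The log2 fold change ran from 2.29 to 2.75 for Cyp4a10, from 3.09 to 3.69 for Cyp4a14 and from 1.47 to 1.87 for Cyp4a31 over all alternatives.

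The make-up of the Cyp4a transcript pool differed with it. All 6 genes together summed to 61.51, 60.96 and 72.43 FPKM across floxed libraries, against 347.07, 345.25 and 208.44 across knockouts, a 4.62-fold ratio of means. Cyp4a14 made up 11.8%, 5.48% and 5.84% of that sum in the floxed and 12.7%, 28.1% and 24.7% in the knockout libraries. The Cyp4a12 pair made up 4.93%, 14.4% and 11.9% in the floxed and 9.90%, 1.39% and 2.55% in the knockout libraries. The Cyp4a14 shares did not overlap between groups, though floxed replicate 1 and knockout replicate 1 lay close together, while the shares of the Cyp4a12 pair overlapped.

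The genes lie side by side, and the higher values did not extend along the whole cluster. In the order of the RefSeq gene table for GRCm38, used for names and order alone, the Cyp4 genes measured here run from Cyp4x1 through Cyp4a29, Cyp4a12a, Cyp4a12b, Cyp4a30b, Cyp4a14, Cyp4a10, Cyp4a31 and Cyp4a32 to Cyp4b1. Cyp4a14, Cyp4a10, Cyp4a31 and Cyp4a32 are therefore neighbours, and the Cyp4a12 pair lies apart from them behind Cyp4a30b. Cyp4x1, an enzyme whose levels are best known from brain, read 1.97, 1.47 and 1.18 FPKM across floxed libraries, against 1.75, 1.54 and 1.19 across knockouts (limma adjusted p = 0.950). Cyp4a29 and Cyp4a30b were at or below 0.13 FPKM in every library. Cyp4b1, at the far end, read 51.26, 101.21 and 137.21 FPKM across floxed libraries, against 641.55, 200.3 and 101.5 across knockouts. Its groups overlapped (limma adjusted p = 0.246), and it was highest in knockout replicate 1 and lowest in floxed replicate 1 like the Cyp4a12 pair. Unlike in that pair, knockout replicate 2 was also above every floxed library.

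Outside the cluster, the 3 nearest measured genes on one side were Stil, Tal1 and Pdzk1ip1 and on the other Efcab14, Tex38 and Atpaf1. None of the 5 that were tested passed the limma threshold over all genes. Of the 5, 1 had an unadjusted p under 0.05, beside 24.7% of all genes. It was Atpaf1, an assembly factor of ATP synthase. Atpaf1 read 10.3 ± 0.512 and 13.2 ± 1.99 FPKM (limma adjusted p = 0.199). Pdzk1ip1, a small membrane protein of the proximal tubule, read 335.42, 396.62 and 293.34 FPKM across floxed libraries, against 797.52, 565.62 and 293.32 across knockouts (limma adjusted p = 0.332).

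**Figure D2:**
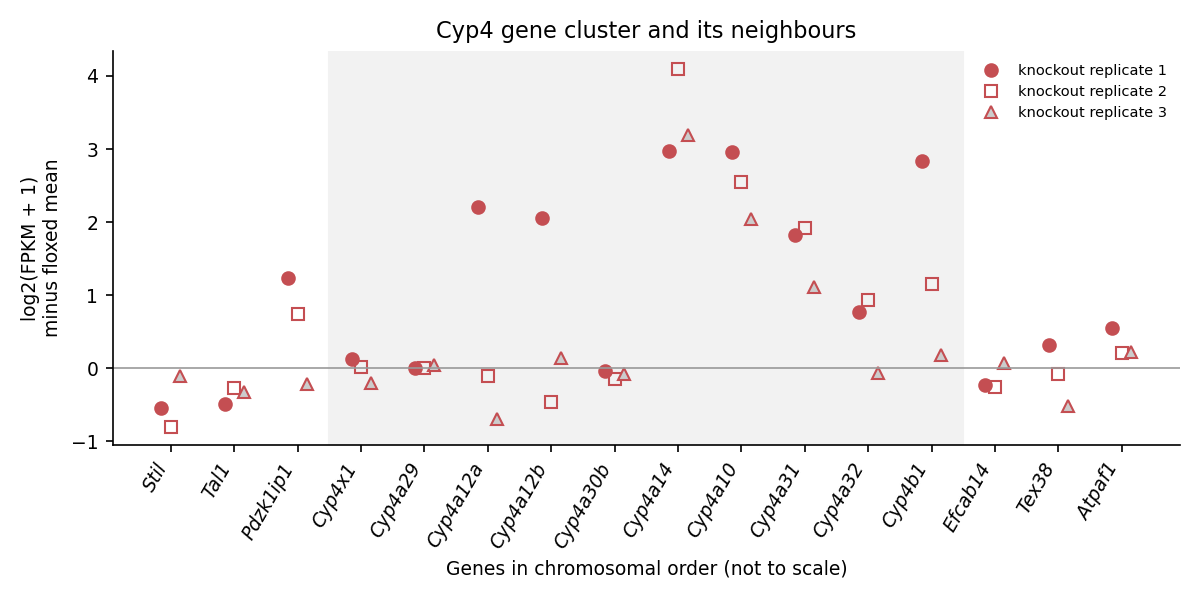
Difference of each knockout library from the floxed mean on the log2(FPKM + 1) scale, for the measured genes of the Cyp4 cluster (grey band) and the 3 nearest measured genes on each side, in chromosomal order and not to scale. Cyp4a14, Cyp4a10 and Cyp4a31 are above 0 in all 3 knockout libraries, and so are Cyp4b1 and Atpaf1, with Cyp4b1 at 0.18 in replicate 3. Cyp4a12a, Cyp4a12b and Cyp4b1 are highest in knockout replicate 1.

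A promoter sequence in the RefSeq table (GRCm38.p6) matched 1 of the 6 genes, Cyp4a32. On either strand of its window around the start it holds no AGGTCA, the half-site of many nuclear receptors, which 16.3% of 32851 promoters of the same length hold. No match says only that these letters are not in this window. A direct repeat of this half-site, searched with up to 2 mismatches, came no closer than 3. Of all promoters 3.86% hold that repeat within the limit. An inverted repeat of a different half-site, searched with up to 3 mismatches, was matched at 2. Of all promoters 14.5% match it within 3 mismatches and 1.84% within 2. Whether a receptor binds in this window was not tested.

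Markers of the proximal tubule, the segment that holds these enzymes, differed between the libraries too. Of 28 markers listed for this segment, 27 were above 0 in knockout against floxed, beside 34.6% of all genes. Their median was 1.15 on the log2 scale, beside -0.12 for all genes. It was 1.77 without knockout replicate 3 and 0.86 without knockout replicate 1. By limma 0 passed after adjustment over all genes (smallest adjusted p = 0.0547), 18 had an unadjusted p under 0.05, all higher, beside 8.38% of all genes, and 25 passed without knockout replicate 3, beside 9.02% of all genes. In 15 of the 28 the groups did not overlap, all with knockout higher, beside 10.0% of all genes. The markers' summed level ran from 6243 to 15430 FPKM in floxed and from 6389 to 47419 FPKM in knockout libraries, with Kap the largest single part in each library, and no marker was at 0 in all libraries. In whole tissue, more cells of a type and more RNA per cell cannot be told apart.

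Set beside the median of those markers, the members parted again. Taken from the floxed mean, the marker median was 2.08, 1.41 and 0.29 in the knockouts. Cyp4a14 stood 2.97, 4.10 and 3.20 above its own floxed mean and Cyp4a10 2.96, 2.55 and 2.04 in the same libraries. In knockout replicate 3, where the marker median was near the floxed level, Cyp4a14, Cyp4a10 and Cyp4a31 exceeded that median by 2.90, 1.75 and 0.82 on the log2 scale. Cyp4a31 was 0.26 below the marker median in replicate 1. Cyp4a12a and Cyp4a12b were 0.13 above and 0.023 below it in replicate 1 and both below it in replicates 2 and 3. Single markers spread widely around their median. The marker Slc22a8 stood at 4.03, 4.15 and 1.16, above Cyp4a14 in replicates 1 and 2 and below it in replicate 3. Pck1 stood at 2.66, 3.27 and 1.45, and Kap at 2.14, -0.36 and -1.32.

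**Figure D3:**
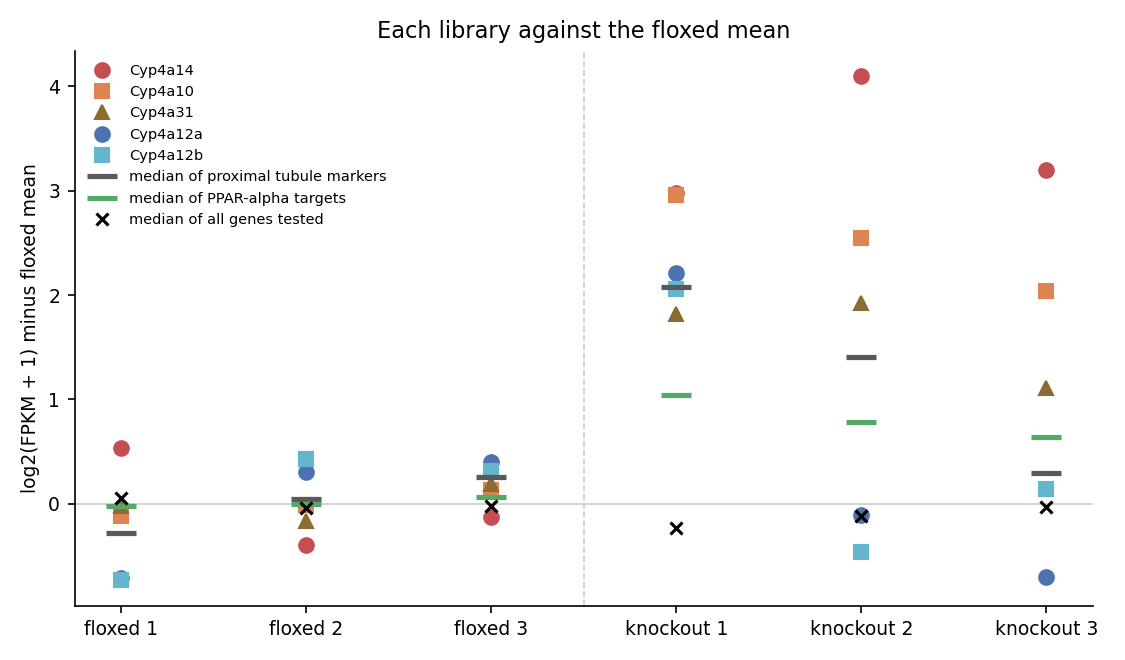
Difference of every library from the floxed mean on the log2(FPKM + 1) scale for 5 Cyp4a genes, with the medians of 28 proximal tubule markers, of 39 PPAR-alpha targets and of all genes tested. In knockout replicate 3 Cyp4a14 and Cyp4a10 stand at 3.20 and 2.04 while the tubule median is 0.29.

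Liver and fat also express Cyp4a10 and Cyp4a14, and their markers were mixed. The hepatocyte genes Cps1, Cyp3a11 and Mup20 were at or below 0.21 FPKM, albumin (Alb) ran from 0.23 to 2.14 FPKM, and 17 of 17 hepatocyte markers were in the table with none at 0 in all libraries. Their summed level was 67.7 to 213 FPKM in floxed and 184 to 370 FPKM in knockout libraries, carried by the fibrinogen chains Fga and Fgg and by Ttr, which reached 154.72 FPKM for Fgg and 214.93 FPKM for Ttr. The apolipoprotein gene Apoc3, with the smallest p of the list, had means of 5.49 ± 0.772 and 22.3 ± 15.6 FPKM (limma adjusted p = 0.105). By limma 0 of 8 tested hepatocyte markers passed, and 2 were higher at an unadjusted p under 0.05 (8.38% of all genes). Without knockout replicate 3, 3 passed as higher (9.02% of all genes). With all libraries the median was 0.67. That median was 0.11 with no filter, 1.14 at a mean of 5 FPKM, and ran from 0.34 without knockout replicate 1 to 1.29 without floxed replicate 2. The part of these genes in the Cyp4a values was not tested. The adipocyte genes Adipoq, Plin1 and Cfd were at or below 0.1 FPKM. The fat list summed to 50.8 to 91.6 FPKM in floxed and 60.1 to 120 FPKM in knockout libraries, nearly all of it Fabp4, which endothelium also makes, and of its 2 tested genes 0 passed by limma or at an unadjusted p under 0.05.

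The gene of PPAR-alpha, the receptor of which Cyp4a10 and Cyp4a14 are textbook targets, read higher in knockout libraries, without passing the test. Whether the receptor acted on them in these kidneys was not tested. Ppara, which encodes PPAR-alpha, read 3.72, 6.32 and 5.21 FPKM across floxed libraries, against 14.8, 16.4 and 9.78 across knockouts. The groups did not overlap, and the mean ratio was 2.69-fold (log2 fold change 1.26, limma adjusted p = 0.0627). Its partner Rxra read 21.9 ± 3.27 and 27.1 ± 3.97 FPKM (limma adjusted p = 0.285). The related receptor Ppard read 6.74 ± 0.0551 and 4.80 ± 0.744 FPKM (limma adjusted p = 0.137). The nuclear factor Hnf4a, which acts in the proximal tubule, read 62.6 ± 9.54 and 102 ± 31.8 FPKM (limma adjusted p = 0.174). Of the 16 tested genes in the list of PPARs, RXRs and cofactors, 0 passed the limma threshold, 3 were higher and 1 lower at an unadjusted p under 0.05, close to the 24.7% of all genes in either direction, and 7 were above 0 (34.6% of all genes). Their median of -0.11 was close to the -0.12 of all genes. Without knockout replicate 3, 5 passed as higher and 1 as lower, beside 9.02% and 15.4% of all genes.

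Other genes that PPAR-alpha is known to control were nearly all higher. Of 39 tested, 38 were above 0, beside 34.6% of all genes, with a median log2 fold change of 0.79. By limma 0 passed after adjustment over all genes, where 0.0672% of all genes did, 31 were higher and 0 lower at an unadjusted p under 0.05 (8.38% and 16.3% of all genes), and 29 passed as higher without knockout replicate 3 (9.02% of all genes). Taken from the floxed mean, the list median was 1.04, 0.78 and 0.64 in the knockouts, a narrower range than that of the tubule markers. Cpt1a, which brings long-chain fatty acids into mitochondria, read 48.8 ± 2.98 and 85.2 ± 5.92 FPKM, with 91.98, 82.63 and 81.02 FPKM in the knockout replicates. The acyl-CoA thioesterase Acot1 and the acyl-CoA synthetase Acsl1 stood 2.15-fold and 2.07-fold higher (limma adjusted p = 0.0547 for each of these 3 genes).

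Further along the omega-oxidation route the direction was the same for most genes. Electrons reach P450 enzymes from the reductase Por, which read 27.14, 29.22 and 39.56 FPKM across floxed libraries, against 67.22, 51.57 and 45.88 across knockouts. The groups did not overlap, at a 1.72-fold ratio (limma adjusted p = 0.0952). Cytochrome b5 (Cyb5a), a second electron donor, read 303 ± 22.4 and 513 ± 181 FPKM (limma adjusted p = 0.170). Of the 6 tested genes of electron supply, 4 were above 0, beside 34.6% of all genes. Of these 6 genes, 0 passed the limma threshold, 3 were higher at an unadjusted p under 0.05 (8.38% of all genes), and the median was 0.24, but 0.16 without knockout replicate 1 and 0.053 with no filter.

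For the next steps, from omega-alcohol to dicarboxylic acid, 0 of 8 tested genes passed the limma threshold, and 4 were higher and 0 lower at an unadjusted p under 0.05, beside 8.38% and 16.3% of all genes (median 0.39, but 0.25 without knockout replicate 1). Of these 8, 6 were above 0, beside 34.6% of all genes. Without overlap between the groups, 4 were higher and 1 lower in knockout, beside 10.0% and 21.7% of all genes. Aldh1a1 was at 10.71, 6.04 and 7.13 FPKM across floxed libraries, against 15.57, 48.13 and 28.55 across knockouts (limma adjusted p = 0.0797), with replicate 2 the highest as for Cyp4a14. Aldh9a1 read 47.0 ± 3.42 and 117 ± 46.2 FPKM (limma adjusted p = 0.0855). The fatty aldehyde dehydrogenase Aldh3a2, which acts on the omega-aldehyde, read 37.6 ± 2.39 and 51.7 ± 12.6 FPKM (limma adjusted p = 0.199).

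Of the peroxisomal genes that take up and shorten dicarboxylic acids, 17 of 18 tested were above 0, beside 34.6% of all genes, with a median of 0.77. By limma 0 passed over all genes, 14 were higher and 0 lower at an unadjusted p under 0.05 (8.38% and 16.3% of all genes), and 13 passed as higher without knockout replicate 3 (9.02% of all genes). Acot3, a peroxisomal thioesterase, read 1.91, 0.9 and 1.58 FPKM across floxed libraries, against 10.22, 16.77 and 6.29 across knockouts, a 7.58-fold ratio (limma adjusted p = 0.0547). Abcd3, the transporter that carries such acids into peroxisomes, read 48.6 ± 8.64 and 87.3 ± 12.3 FPKM (limma adjusted p = 0.0687). Several of these genes also stand in the list of PPAR-alpha targets, so the lists are not separate observations.

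**Figure D4:**
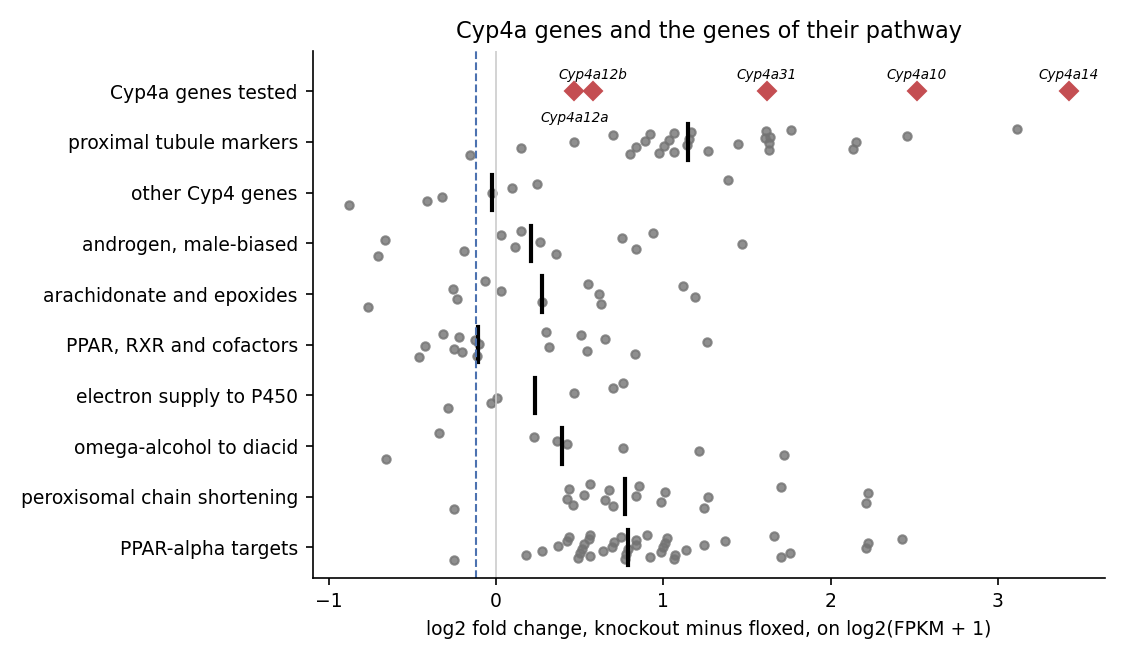
Log2 fold change of knockout against floxed for the 5 tested Cyp4a genes (red diamonds) and for the tested genes of 9 lists (grey points), with a black bar at each list median and a dashed line at the median of all genes (-0.12). The medians of the PPAR-alpha target and peroxisomal lists are 0.79 and 0.77, that of the PPAR and RXR list is -0.11.

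Arachidonic acid, the substrate for 20-HETE, is freed from membranes by phospholipases such as Pla2g4a, which read 10.75, 11.82 and 11.81 FPKM across floxed libraries, against 4.92, 5.25 and 9.57 across knockouts. All 3 knockout libraries were below the floxed ones (limma adjusted p = 0.118). Cyp2j9 and Cyp2j11, P450 genes outside the Cyp4 family, read 8.77 ± 1.05 and 14.2 ± 2.56 FPKM (limma adjusted p = 0.0947) and 20.0 ± 3.47 and 49.0 ± 25.4 FPKM (limma adjusted p = 0.143). Of the 11 tested genes of this list 0 passed the limma threshold, with 2 higher and 1 lower at an unadjusted p under 0.05, close to the 24.7% of all genes in either direction. The other members of the wider Cyp4 family gave no call by limma among 7 tested. Of them 0 had an unadjusted p under 0.05, beside 24.7% of all genes. Cyp4f16 and Cyp4v3, outside the chromosome 4 cluster, read 16.4 ± 2.23 and 12.2 ± 2.72 FPKM (limma adjusted p = 0.216), and 14.9 ± 1.02 and 12.1 ± 4.02 FPKM (limma adjusted p = 0.376).

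Genes induced by androgen or higher in male kidney were listed because Cyp4a12a belongs with them. Taken from the floxed mean, their median was 2.01 in knockout replicate 1, -0.070 and -0.80 in the other two, and -0.81 in floxed replicate 1. Of 12 tested 0 passed the limma threshold. At an unadjusted p under 0.05 stood 1 higher, the ethanol-oxidising P450 gene Cyp2e1, and 1 lower, the beta-glucuronidase gene Gusb. Of all genes 24.7% stood there in either direction. Kap, an abundant androgen-induced protein of the proximal tubule, read 4383, 12948 and 10811 FPKM across floxed libraries, against 37353, 6599.8 and 3405 across knockouts.

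Nearest profiles were found among all tested genes by the root mean square distance over the 6 libraries between values of log2(FPKM + 1) taken from each gene's floxed mean. For Cyp4a10 the 5 nearest were the gluconeogenic enzyme Pck1 (distance 0.40), the peroxisomal thiolase Acaa1b (0.42), Acot3 (0.44), the fructose transporter Slc2a5 (0.50) and the glutathione transferase Gsta2 (0.51). Pck1 is also one of the proximal tubule markers listed above. For Cyp4a14 no gene came as near, the closest being the calcium-binding S100g (0.80), the interferon-inducible relative Ifi44l (0.81), the cytochrome P450 genes Cyp2d26 (0.81) and Cyp2a5 (0.84) and the retinol dehydrogenase relative Rdh16f2 (0.83). For Cyp4a12a the nearest were Selenbp2 (0.27), the organic anion transporter relative Slc22a26 (0.27), the lactate dehydrogenase Ldhd (0.29), Kap (0.32) and Cyp7b1, an oxysterol hydroxylase (0.35). These distances describe 6 libraries, and with median-ratio scaling the same 5 genes were found for each of the 3.

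**Figure D5:**
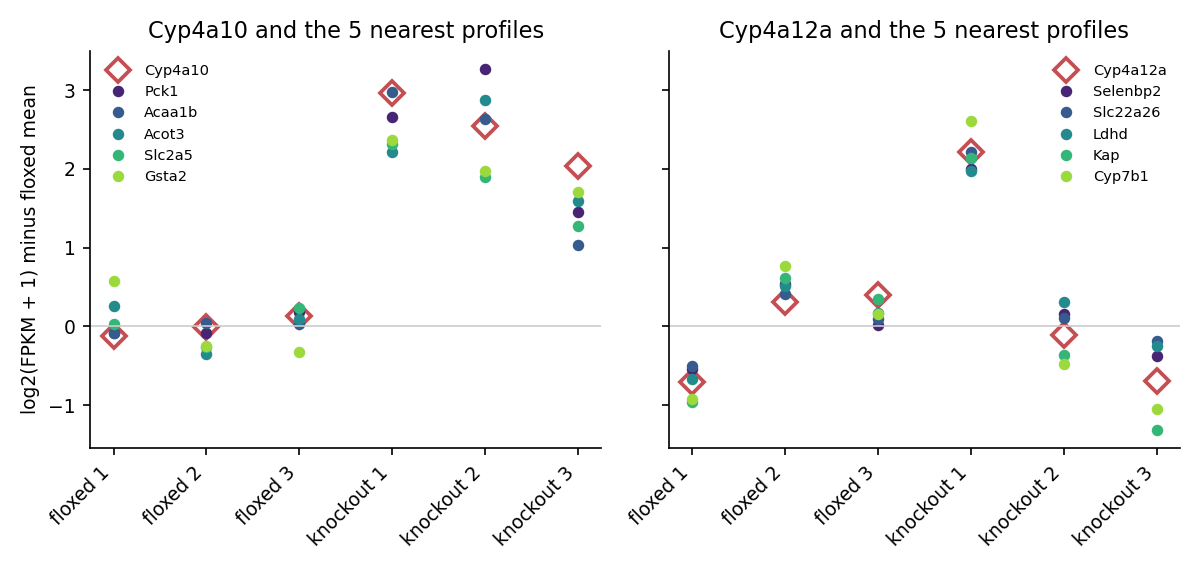
Values of log2(FPKM + 1) minus the floxed mean in each library for Cyp4a10 (left) and Cyp4a12a (right), as open diamonds, and for the 5 genes with the nearest profiles, as points. Cyp4a10 and its neighbours are above 0 in all 3 knockout libraries, and Cyp4a12a and its neighbours are high in knockout replicate 1. The neighbours were picked by nearness over these same 6 libraries, so their likeness follows from the choice.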

How the data were processed

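Total RNA of kidney tissue, taken up in TRIzol, was made into 6 Illumina libraries, as the labels' protocols say. The deposited table gives the authors' FPKM for each gene and library, to 2 decimals. The submitters' processing notes name mm9. No source used here names the aligner, the counter or the annotation. The 6 genes and all lists were chosen with earlier results of these data known. Groups and replicate numbers came from the titles. The 13390 genes reaching 1 FPKM in 3 or more libraries were compared two-sided with limma 3.58.1 (R 4.3.3) on log2(FPKM + 1), with group alone in the model, a trended prior and Benjamini-Hochberg adjustment at 0.05 over all of them. The function was tested on simulated data. Depth per library, about 16000000 to 17950000 fragments, was estimated from low values of single-transcript genes of GENCODE M21. Coding regions were aligned globally with Biopython 1.88 in place of the planned protein comparison, and transcript windows were matched exactly on both strands to all other genes. Named are Abl1, the 6 genes, the cluster with 3 genes on each side, up to 4 genes with the smallest p per list plus Ppara, Rxra and Por, and the 5 nearest profiles. Defining markers of liver and fat are also named. Some genes that this rule names are not reported here. Alternatives were another pseudocount (0.1), no filter, a filter at a mean of 5 FPKM, scaling by median ratio or to TPM, no trend, a replicate block and leaving out each library.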

Additional observations from a re-analysis of the deposited data

How the results depend on the processing

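The count of 9 called genes fell to 1 with a pseudocount of 0.1, no filter on low values, a filter at a mean of 5 FPKM, median-ratio scaling or no mean-variance trend, was 10 with TPM scaling, and ran from 0 to 3271 when a library was left out. It was 0 without floxed replicate 2 or floxed replicate 3 (by limma 2298 and 2146 then had an unadjusted p under 0.05), 1 and 2 without knockout replicate 2 and 1, and 3271 without knockout replicate 3. With the replicate block it was 2. Correlations of same-numbered deviations from the group means were -0.13, -0.070 and 0.034, and those of differently numbered libraries ran from -0.12 to 0.13. With 3 libraries per group these values cannot settle whether the numbers pair the libraries. The cause of these moves was not tested. In each of the 8 lists that follow, 0 genes were called when any library other than knockout replicate 3 was left out. Without knockout replicate 3, 24.4% of all genes were called. Called then were 2 of 7 other Cyp4 genes, 3 of 6 for electron supply and 4 of 8 for omega-alcohol oxidation. For peroxisomal shortening it was 13 of 18, for PPARs and cofactors 6 of 16 and for PPAR-alpha targets 29 of 39. Of androgen-related genes 3 of 12 were called, and of arachidonate genes 4 of 11. Cyp4a12a and Cyp4a12b reversed without knockout replicate 1, to -0.40 and -0.16, and reached 1.05 without knockout replicate 3 and 1.10 without knockout replicate 2. List medians near 0 also changed sign: other Cyp4 genes to 0.067 with median-ratio scaling and 0.097 without floxed replicate 1, PPARs and cofactors to 0.013 with median-ratio scaling, androgen-related genes to -0.073 without floxed replicate 1 and -0.16 without knockout replicate 1 (0.57 without knockout replicate 3), and the fat list to 0.026 with no filter, 0.14 at a mean of 5 FPKM and 0.0071 without floxed replicate 3 (-0.32 without floxed replicate 2). Fabp4 went to -0.14 and -0.16 without floxed replicate 2 and knockout replicate 1, and to 0.36 without knockout replicate 3. Abl1 stayed lower in every alternative run. Its log2 fold change was -0.42 in the main run, and ran from -0.52 without knockout replicate 2 to -0.30 with median-ratio scaling. Of 42 named list genes, 31 values passed the threshold that had not, all without knockout replicate 3. FPKM in place of counts limits the precision for Cyp4a32, at about 15 to 55 fragments per library.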
